A study of Mus musculus with 6 samples.

Results

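The 9 genes Spi1, Cebpa, Cebpb, Maf, Irf8, Irf5, Runx1, Klf4 and Zeb2 encode transcription factors that establish or maintain the macrophage lineage, and their mRNA was compared between WT and PYK2 KO bone marrow-derived macrophages (BMDMs). They were taken from the count table by symbol. All 9 were among the 55291 genes listed, and all 9 passed the filter on low counts that left 9815 genes for testing. BMDMs are macrophages that differentiate in culture from marrow precursors, here over 7 days with L929 cell-conditioned medium as the source of macrophage colony-stimulating factor (M-CSF). One library was made for each of 3 WT and 3 PYK2 KO mice on the C57BL/6 background, numbered 1, 5 and 6 for WT and 2, 3 and 4 for PYK2 KO. PYK2, encoded by Ptk2b, is a cytoplasmic tyrosine kinase of the focal adhesion kinase family, and the KO mice lack it in every cell, so that the marrow precursors lacked it as well. The age of the mice is not given in the sources used here.

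Macrophage identity is set by a small group of transcription factors that act together on the same enhancers. PU.1, the product of Spi1, binds first and keeps chromatin open, RUNX1 and C/EBPα act with it as myeloid progenitors form, and IRF8, MAF, KLF4, ZEB2, C/EBPβ and IRF5 then direct monocyte development, self-renewal, tissue programs and inflammatory responses. M-CSF signals through its receptor CSF1R to tyrosine kinases and keeps this program running in culture. IRF5 is a known substrate of PYK2, but its phosphorylation cannot be read from mRNA.

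None of the 9 genes passed the test between WT and PYK2 KO BMDMs, which was the quasi-likelihood test of edgeR, adjusted over all 9815 genes by Benjamini-Hochberg. The log2 fold changes ran from -0.18 for Spi1 to 0.22 for Cebpa, with 5 genes higher and 4 lower in PYK2 KO and a median of 0.0049, against a median of 0.0019 over all genes tested. Of the 9 genes, 0 were past an adjusted p of 0.05, as were 0.255% of all genes tested, and the smallest adjusted p was 0.880, for Cebpa. At an unadjusted p under 0.05 the count was also 0 of 9, against 6.03% of all genes. In 0 of the 9 genes did the 3 PYK2 KO values all lie above or all below those of WT, whereas 10.2% of all genes had this separation. A p-value that misses the threshold does not show that levels are equal, and the 95% intervals give the sizes that these libraries could not separate. For 7 of the 9 genes the whole interval lay within 30% of the WT level, and the upper limits for Cebpa and Klf4 went beyond it. Over all 9 genes the intervals allowed a level in PYK2 KO of at most 25.5% below WT, for Spi1, and at most 37.7% above WT, for Cebpa.

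**Figure D1:**
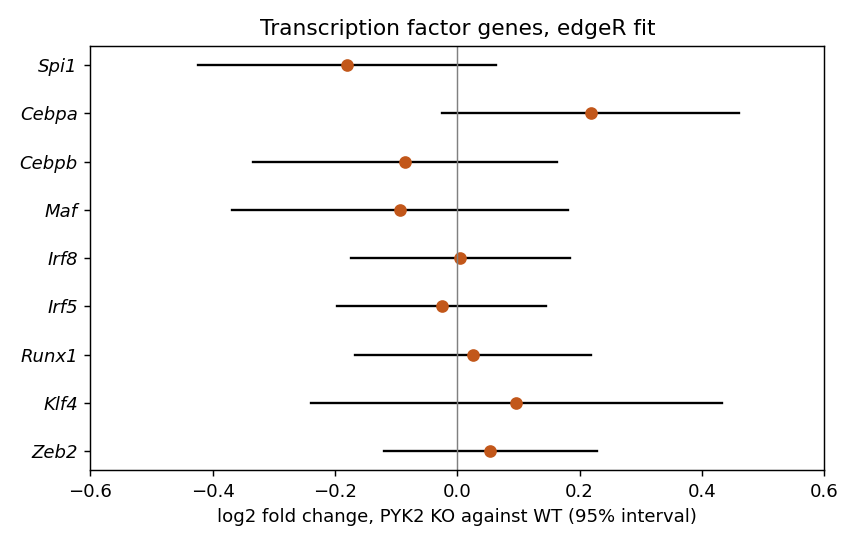
Log2 fold change of each transcription factor gene in PYK2 KO against WT BMDMs (x axis; 3 mice each), with points for the edgeR estimate and lines for the 95% interval. Every line crosses 0, and the estimates run from -0.18 for Spi1 to 0.22 for Cebpa.

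The libraries held 2857097 to 3917207 counts, and the 9 genes had 56 to 1820 counts each per library. Libraries were made by a bulk form of MARS-seq, which reads the 3′ end of polyadenylated RNA, and values are given as CPM, the counts rescaled by TMM to the same total in each library, not divided by transcript length. Levels were therefore compared for the same gene between libraries and not between genes. In bulk RNA, fewer cells that express a gene and less of its RNA per cell cannot be told apart. The deleted gene, Ptk2b, was counted 737, 701 and 568 times in WT and 71, 64 and 69 times in PYK2 KO, and its log2 fold change was -3.15 ± 0.099 (SE; adjusted p = 1.03e-11, edgeR). The smallest two-sided p that an exact permutation test of 3 against 3 mice can give is 0.1.

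The counts are of transcript ends and do not separate the start sites of a gene. Runx1 is known for a distal and a proximal promoter that give proteins with different N termini, and both are summed in 1 row of the table. Their sequences are shown from 250 bases before to 50 bases after the annotated start (RefSeq, GRCm38.p6, minus strand), as is the outermost start of Zeb2, because they hold short motifs of the factors described here, in capitals. The motifs searched on both strands were GAGGAA for PU.1, TTGCNNAA for C/EBP, TGTGGT for RUNX, GAAANNGAA for IRF, TGCTGA for MAF, GGGTGTGG for KLF and CACCTG for ZEB.
Runx1 distal start, chr16:92826025-92826324: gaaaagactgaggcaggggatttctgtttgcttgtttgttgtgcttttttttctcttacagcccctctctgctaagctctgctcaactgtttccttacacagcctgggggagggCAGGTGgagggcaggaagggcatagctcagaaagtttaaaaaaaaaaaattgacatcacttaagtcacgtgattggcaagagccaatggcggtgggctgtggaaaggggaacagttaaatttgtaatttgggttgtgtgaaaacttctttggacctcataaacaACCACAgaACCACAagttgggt
Runx1 proximal start, chr16:92697280-92697579: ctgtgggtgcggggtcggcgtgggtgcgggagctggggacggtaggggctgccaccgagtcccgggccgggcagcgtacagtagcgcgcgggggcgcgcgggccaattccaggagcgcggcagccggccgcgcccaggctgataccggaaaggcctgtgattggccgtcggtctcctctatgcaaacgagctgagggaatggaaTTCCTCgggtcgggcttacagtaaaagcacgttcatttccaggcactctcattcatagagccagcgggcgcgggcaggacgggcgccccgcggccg
Zeb2 outermost start, chr2:45117393-45117692: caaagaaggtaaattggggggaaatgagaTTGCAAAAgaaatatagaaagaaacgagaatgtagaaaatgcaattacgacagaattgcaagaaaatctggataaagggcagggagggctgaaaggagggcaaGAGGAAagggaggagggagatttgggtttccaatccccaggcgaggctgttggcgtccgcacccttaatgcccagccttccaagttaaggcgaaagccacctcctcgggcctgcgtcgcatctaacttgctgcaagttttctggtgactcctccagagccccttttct
The capitals mark a ZEB and 2 RUNX matches at the distal start of Runx1, a PU.1 match at its proximal start, and a C/EBP and a PU.1 match at the start of Zeb2. RefSeq windows were matched for 7 of the 9 genes, with 12 windows in all. Spi1 and Maf had no entry. A PU.1 match was found in 5 of these 12 windows, against 28.3% of all 32851 promoter windows, but 4 of the 5 belong to Zeb2, of which 2 overlap each other, so that 2 of the 7 genes had one. There was a ZEB match in 2, against 20.2%, and a C/EBP, a RUNX and a MAF match in 1 each, against 10.8%, 16.8% and 19.5%. IRF and KLF matches were found in 0 of the 12, against 8.56% and 3.56%. A match is a description of these letters and does not show that a factor binds.

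Spi1 (chr2:91082390-91115756, GENCODE M21 on GRCm38) encodes PU.1, the ETS factor that macrophages cannot form without. It had 393, 434 and 365 CPM in WT libraries 1, 5 and 6 and 392, 382 and 279 CPM in PYK2 KO libraries 2, 3 and 4. PYK2 KO libraries 2 and 3 lay within the WT range, and library 4 alone lay below it. The means were 397 ± 34.7 CPM in WT against 351 ± 62.3 CPM in PYK2 KO (SD, n = 3 mice each), with a log2 ratio of PYK2 KO to WT of -0.18 ± 0.11 (SE; 95% interval -0.42 to 0.064; adjusted p = 0.912, edgeR). In percent, PYK2 KO was at 88.3% of WT (95% interval 74.5 to 104.5). Leaving out PYK2 KO library 4 gave a log2 fold change of -0.039, and leaving out library 2 gave -0.27.

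Cebpa (chr7:35119293-35121928) encodes C/EBPα, which moves progenitors into the granulocyte and monocyte path. It had 87.6, 96.8 and 76.1 CPM in WT libraries 1, 5 and 6 and 119, 92.1 and 93.3 CPM in PYK2 KO libraries 2, 3 and 4. Here PYK2 KO library 2 alone stood above the WT range. The means were 86.8 ± 10.4 CPM in WT against 101 ± 15.0 CPM in PYK2 KO (SD, n = 3 mice each). This was the log2 fold change of largest size among the 9 genes, 0.22 ± 0.11 (SE; 95% interval -0.025 to 0.46; adjusted p = 0.880, edgeR). It was 0.089 without PYK2 KO library 2, and leaving out WT library 5 gave 0.30.

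Runx1 (chr16:92601466-92826149) encodes the RUNX factor from which definitive blood cells arise and which opens the Spi1 locus in progenitors. Its values were 77.4, 78.7 and 72.2 CPM in WT against 78.9, 77.6 and 76.3 CPM in PYK2 KO, libraries in the same order. All 3 PYK2 KO libraries lay close together and overlapped the upper WT values. The log2 fold change was 0.026 ± 0.091 (SE; 95% interval -0.17 to 0.22; adjusted p = 0.993, edgeR). The coefficient of variation (CV) within genotypes was 3.37%, below the 6.29% that counting alone gives at this depth.

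Among the factors of monocytes and inflammation, Irf8 (chr8:120736358-120756694) encodes the interferon regulatory factor that directs progenitors to monocytes rather than neutrophils. It had 292, 281 and 260.4 CPM in WT against 289, 288 and 260.2 CPM in PYK2 KO. Each genotype had 1 library near the bottom of the range and the rest near the top. PYK2 KO was at 100.3% of WT (95% interval 88.6 to 114), a log2 fold change of 0.0049 ± 0.085 (SE; adjusted p = 0.999, edgeR). Irf5 (chr6:29526625-29541871), which drives inflammatory cytokine genes, had 161, 158 and 146 CPM in WT against 150.1, 159 and 148 CPM in PYK2 KO. All 3 PYK2 KO values lay inside the WT range, with a log2 fold change of -0.025 ± 0.081 (SE; 95% interval -0.20 to 0.15; adjusted p = 0.993, edgeR). The 3′ end of Irf5 overlaps that of Tnpo3 on the other strand over 1045 bases, Tnpo3 had 208 to 287 counts per library, and the use of strand in counting is not given in the sources used here, so the level of Irf5 is uncertain. Irf8 lies on the same strand as Gm20388, which overlaps it along its whole length of 20337 bases, 3′ end included. Gm20388 is not among the genes listed, and how its reads were counted is not known, so the level of Irf8 is uncertain as well. Cebpb and Zeb2 overlap Tmem189 (1184 to 1565 counts per library) and Zeb2os (121 to 247 counts) on the other strand, in neither case at the 3′ end of the factor.

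Cebpb (chr2:167688915-167690418) encodes C/EBPβ, which macrophages use in inflammatory and alternative activation. It had 401, 509 and 576 CPM in WT libraries 1, 5 and 6 and 495, 495 and 409 CPM in PYK2 KO libraries 2, 3 and 4, so that the PYK2 KO values lay inside the wide WT range. The means were 495 ± 88.3 CPM in WT against 466 ± 49.8 CPM in PYK2 KO (SD, n = 3 mice each). The log2 fold change was -0.086 ± 0.12 (SE; 95% interval -0.33 to 0.16; adjusted p = 0.965, edgeR). It was -0.22 without WT library 1 and 0.035 without WT library 6, and it was also above 0, at 0.00094, when PYK2 KO library 4 was left out, so the sign depended on single mice of both genotypes.

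Maf (chr8:115682942-115707794) encodes c-MAF, which restrains self-renewal and serves tissue-resident programs. Its values were 89.1, 78.7 and 63.4 CPM in WT libraries 1, 5 and 6 and 65.4, 67.2 and 84.9 CPM in PYK2 KO libraries 2, 3 and 4. The PYK2 KO values lay within the WT range, with library 4 near its top. The log2 fold change was -0.094 ± 0.13 (SE; 95% interval -0.37 to 0.18; adjusted p = 0.965, edgeR), and it was 0.026 without WT library 1, while leaving out PYK2 KO library 4 gave -0.23. Of the 9 genes, Maf varied most within genotypes, with a CV of 15.9%, followed by Cebpb at 14.9%, Cebpa at 13.7% and Spi1 at 13.5%. Counting alone gives 6.34%, 2.53%, 5.69% and 2.85% for these genes, so that their spread between libraries was above the counting error.

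Klf4 (chr4:55527143-55532466), a zinc finger factor of inflammatory monocytes, had the fewest counts of the 9 genes, 56 to 80 per library. It had 18.4, 22.4 and 19.6 CPM in WT against 20.9, 24.2 and 19.7 CPM in PYK2 KO. The genotypes overlapped, and the log2 fold change of 0.097 had the widest interval (-0.24 to 0.43; SE 0.16, adjusted p = 0.976, edgeR). Zeb2 (chr2:44983632-45117395), a zinc finger repressor that binds E-box motifs and helps keep macrophages in their lineage, had 222, 209.9 and 212 CPM in WT against 208, 222 and 238 CPM in PYK2 KO. PYK2 KO library 4 stood above the WT range and library 2 just below it. The log2 fold change was 0.054 ± 0.082 (SE; 95% interval -0.12 to 0.23; adjusted p = 0.972, edgeR). Over the 9 genes the two-sided exact permutation test of mean log2 CPM gave p-values from 0.3 for Cebpa to 1 for Irf8 (n = 3 mice each).

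**Figure D2:**
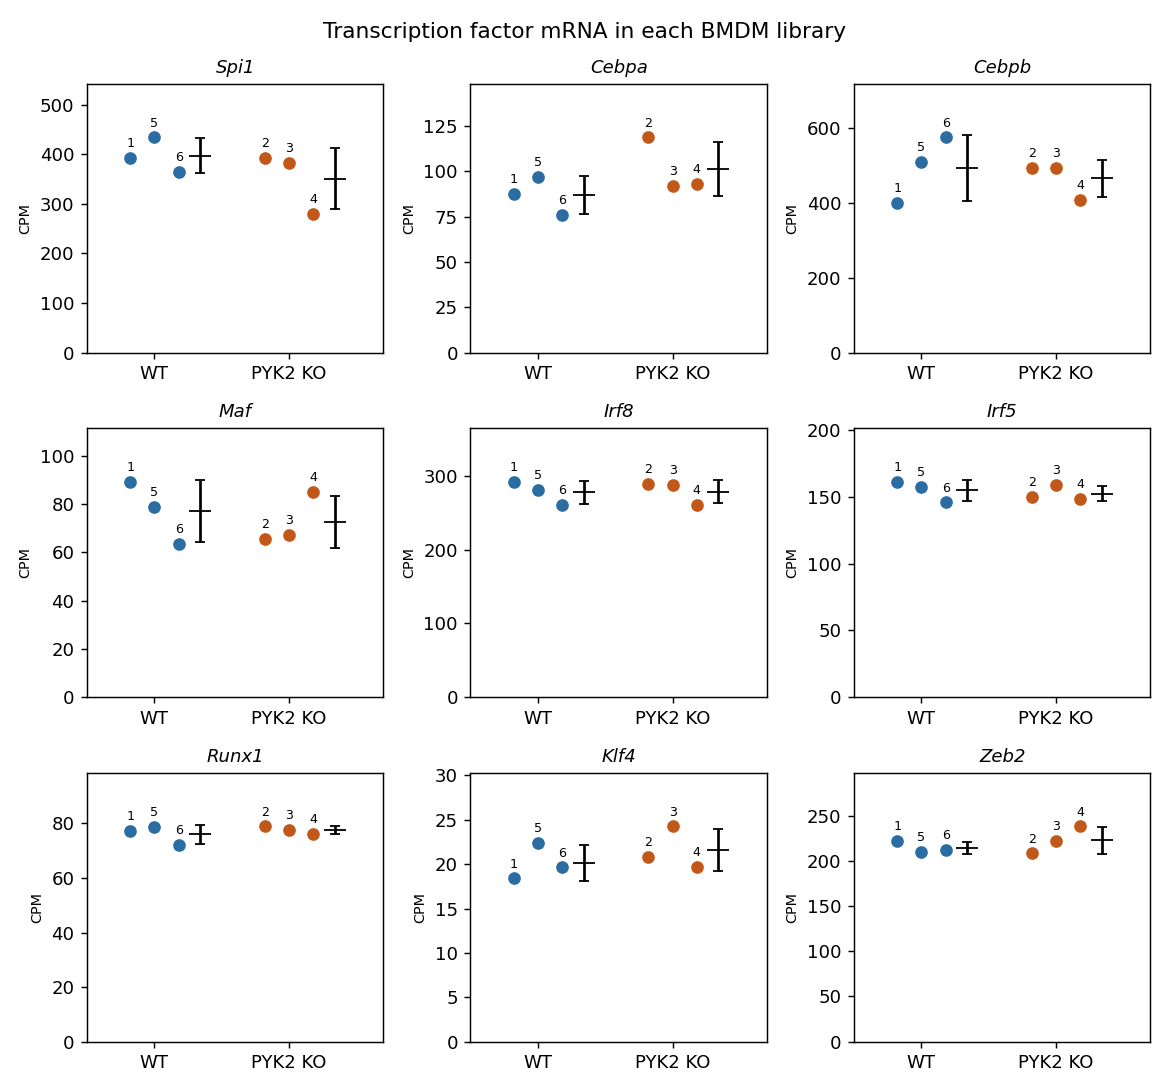
CPM (y axis, from 0) of each of the 9 genes in the 3 WT (blue) and 3 PYK2 KO (orange) libraries; numbers are library numbers and bars the mean ± SD. The genotypes overlap in every panel, with PYK2 KO library 4 lowest for Spi1 and PYK2 KO library 2 highest for Cebpa.

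The libraries of both genotypes varied along a shared axis. After the genotype means were removed from all tested genes, the scores on the first principal component of the residuals were -15.0 for WT library 1 and -14.1 for PYK2 KO library 4 at one end, and 12.6 for WT library 6 and 13.6 for PYK2 KO library 2 at the other. WT library 5 and PYK2 KO library 3 lay between them, at 2.39 and 0.52. In each genotype, the library at the negative end had the least Cebpb and the most Maf, and these 2 genes had a Pearson r of -0.86 over the 6 libraries. Spi1 and Zeb2 had an r of -0.82, Cebpa and Runx1 of 0.82, and Irf8 and Irf5 of 0.80. These are descriptions over n = 6 libraries, whose depth and scaling all 9 genes share. With the component as a covariate the log2 fold changes were -0.076 for Cebpb, -0.087 for Maf, -0.19 for Spi1 and 0.21 for Cebpa, and 0 of the 9 genes passed the threshold (smallest adjusted p = 0.689, edgeR, for Cebpa).

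**Figure D3:**
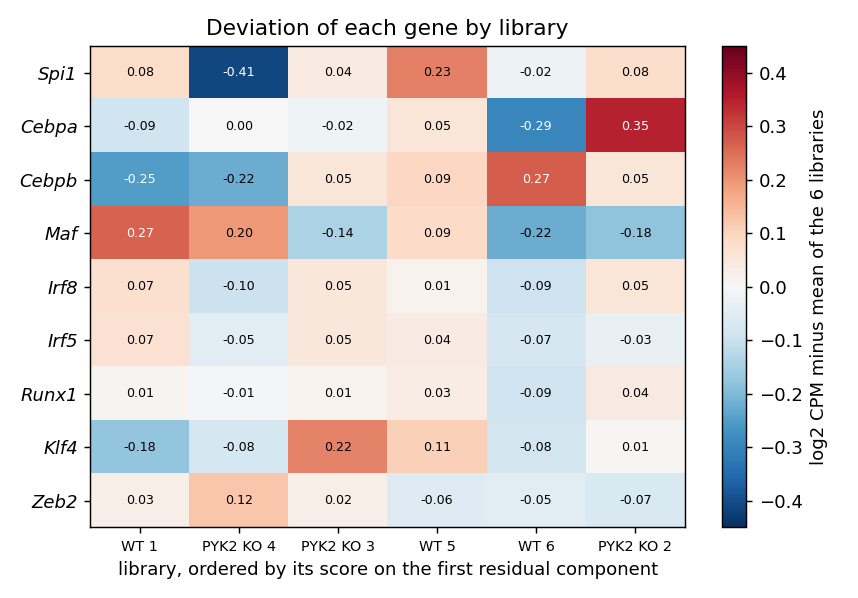
Deviation of each gene (rows) in each library (columns, ordered by the score on the first residual component), as log2 CPM minus the gene's mean over the 6 libraries; red is above and blue below the mean. WT library 1 and PYK2 KO library 4, side by side at the left, are both low for Cebpb (-0.25 and -0.22) and high for Maf (0.27 and 0.20).

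PU.1 and C/EBPα are known to compete in dose for monocyte against granulocyte fate. Ratios between the factors were added to the planned comparisons, and that of Spi1 to Cebpa was singled out after its values were seen. Of the 36 ratios between pairs of the 9 genes, 2 did not overlap between genotypes, or 5.56%, against 11% of the ratios between pairs of 9809 genes with a count in every library. The share was thus not above that of all genes. The ratio of Spi1 to Cebpa CPM was 4.49, 4.48 and 4.80 in WT libraries 1, 5 and 6 and 3.30, 4.14 and 2.99 in PYK2 KO libraries 2, 3 and 4. On the log2 scale the mean was 2.20 ± 0.056 in WT and 1.79 ± 0.24 in PYK2 KO (SD, n = 3 mice each), a difference of -0.41. All 3 PYK2 KO ratios were lower than all 3 WT ratios, and neither gene alone separated the genotypes. The exact permutation test gave p = 0.1, the smallest it can give, and 0.9 after adjustment over the 36 ratios. These 2 genes had the lowest and highest log2 fold change of the 9, which favors a separation of their ratio. The ratio of Spi1 to Runx1, the other ratio without overlap, was 5.08, 5.52 and 5.05 in WT and 4.97, 4.92 and 3.66 in PYK2 KO. The nearest values of the 2 genotypes were 1.02-fold apart.

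The gene whose log2 CPM followed each factor most closely over the 6 libraries was taken among about 3552 genes with a mean of at least 50 CPM. It was Pip5k1c for Spi1 (Pearson r = 0.99), Snx6 for Cebpa (r = 0.97), Parp3 for Cebpb (r = 0.99), Stxbp5 for Maf (r = 0.99) and Mob3a for Irf8 (r = 0.98). For Irf5 it was Hlx (r = 0.97), for Runx1 Arl3 (r = 0.98), for Klf4 Rpl10a (r = 0.97) and for Zeb2 Slc39a1 (r = 0.99). The number of genes with an r over 0.95 ran from 5 for Cebpa to 39 for Spi1. These are the highest values among many candidates over n = 6 libraries that share depth and scaling. None of the 9 closest genes was itself among the 9 factors, of which Klf4 was below 50 CPM and could not be chosen. With about 3552 candidates for each factor, this says little about the factors.

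The wider families of these factors were likewise without a called gene. Of 37 further members of the ETS, C/EBP, MAF, IRF, RUNX, KLF and ZEB families, 30 were tested, with a median log2 fold change of 0.024. Of these, 0 passed, against 0.255% of all genes tested, and 0 had an unadjusted p under 0.05, against 6.03% of all genes. The log2 fold changes of Klf6 and Klf13, zinc finger factors of the same family as Klf4, were 0.089 and 0.0055. Mafk, a small MAF protein, had the smallest unadjusted p of this group, with a log2 fold change of -0.41 ± 0.20 (SE; adjusted p = 0.858, edgeR), which was -0.18 without WT library 1.

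Of 36 other transcription factors used by macrophages, 33 were tested and 0 passed, while 4 were lower and 0 higher at an unadjusted p under 0.05, against 258 lower and 334 higher of all 9815 genes (6.03% in either direction). The median log2 fold change was -0.066, with 22 genes lower and 11 higher. The 4 genes were Egr1, Fos, Stat6 and Myc, the last 3 of which were named after their values were seen. Stat6, the factor of IL-4 signaling, had 178 ± 11.8 CPM in WT against 151 ± 3.45 CPM in PYK2 KO (SD, n = 3 mice each) with no overlap, as in 10.2% of all genes, and a log2 fold change of -0.24 (adjusted p = 0.583, edgeR). Myc, which supports growth, had a log2 fold change of -0.39 (adjusted p = 0.783, edgeR), which was -0.25 without WT library 6. The log2 fold changes of Id2, Nfe2l2 and Atf3 were -0.17, 0.19 and -0.012. With 1 library left out, that of Id2 ran from -0.25 to -0.071 (without WT library 6), and that of Nfe2l2 from 0.027 (without WT library 1) to 0.35 (without WT library 6).

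Of 19 regulators of other blood lineages, 3 had enough counts to be tested, and 0 passed. Tcf4, a factor of plasmacytoid dendritic cells, had 53.8 ± 10.2 CPM in WT against 52.1 ± 3.57 CPM in PYK2 KO (SD, n = 3 mice each), and Tal1, of erythroid and stem cells, had 17.5 ± 1.52 against 15.4 ± 2.49 CPM. Meis1 was near 3.62 CPM in WT. The log2 fold changes of Tal1, Meis1 and Tcf4 were -0.20, -0.19 and -0.055, that of Tal1 was -0.069 without PYK2 KO library 2, and that of Meis1 was -0.026 without WT library 1. Gata1 and Gfi1b of the erythroid lineage, Pax5 and Ebf1 of B cells and Zbtb46 of dendritic cells had 0 counts in all 6 libraries, which allows up to 0.762 to 1.05 CPM, depending on the library (3 counts, counting error only).

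Among known target genes of the factors, 1 passed the threshold, in the C/EBP list. Of 19 PU.1 target genes 19 were tested and 0 passed, 13 were higher and 6 lower in PYK2 KO, and the median log2 fold change was 0.067. Ncf4, a subunit of the phagocyte NADPH oxidase, had 238 ± 8.27 CPM in WT against 305 ± 7.95 CPM in PYK2 KO (SD, n = 3 mice each) with no overlap, a log2 fold change of 0.36 (adjusted p = 0.125, edgeR). It was past the threshold in DESeq2 (adjusted p = 0.0225), and its adjusted p ran from 0.0151 to 0.381 over the alternatives. Cybb, the catalytic subunit of the same oxidase and a target of both PU.1 and IRF8, had a log2 fold change of 0.30 (adjusted p = 0.641, edgeR), which was 0.16 when PYK2 KO library 4 was left out and 0.43 when library 2 was. The log2 fold changes of Lyz2 (lysozyme), Cd68 (a lysosomal glycoprotein) and Fcer1g (the signaling chain of Fc receptors) were 0.077, -0.016 and -0.017.

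Of 16 C/EBP target genes 11 were tested and 1 passed. Saa3, an acute-phase protein of macrophages and fat, rose from 94.7 ± 6.58 CPM in WT to 201 ± 16.1 CPM in PYK2 KO (SD, n = 3 mice each), with a log2 ratio of PYK2 KO to WT of 1.09 ± 0.090 (SE; adjusted p = 5.67e-06, edgeR). Neither Cebpa nor Cebpb differed past the threshold in the same libraries. The median of the list was -0.076, with 5 genes higher and 6 lower. Mpo, the myeloperoxidase of granulocyte and monocyte precursors, had 2.10 ± 1.09 CPM in WT against 4.88 ± 1.37 CPM in PYK2 KO (SD, n = 3 mice each), with an adjusted p of 0.591 in edgeR.

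Of 7 MAF target genes 5 were tested and 0 passed. The 3 chains of complement C1q had log2 fold changes of 0.17 for C1qa, -0.13 for C1qb and -0.20 for C1qc, with adjusted p-values of 0.873, 0.932 and 0.896 in edgeR. With 1 library left out they ran from 0.092 (without PYK2 KO library 2) to 0.23 for C1qa, from -0.22 (without WT library 6) to -0.042 (without WT library 5) for C1qb, and from -0.33 (without WT library 6) to -0.12 (without PYK2 KO library 4) for C1qc. Of 13 IRF8 and IRF5 target genes 7 were tested and 0 passed, with a median of 0.028. The cytokine genes Il12b, Il12a, Il23a and Il6 had 0 counts in all 6 libraries, so these targets of IRF5 gave no value here. Acod1, which makes itaconate, had 51.8 ± 15.0 CPM in WT against 77.2 ± 14.1 CPM in PYK2 KO (SD, n = 3 mice each), with a log2 ratio of PYK2 KO to WT of 0.59 (adjusted p = 0.401, edgeR). Without WT library 6 its log2 fold change was 0.83 and past the threshold (adjusted p = 0.0272, edgeR), within a range of 0.000116 to 0.995 over the alternatives. Over all the lists of factors and targets, 141 genes were named, 105 were tested and Saa3 was the 1 called, against 0.255% of all genes tested. At an unadjusted p under 0.05, 5 were higher and 4 lower, against 6.03% of all genes in either direction.

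**Figure D4:**
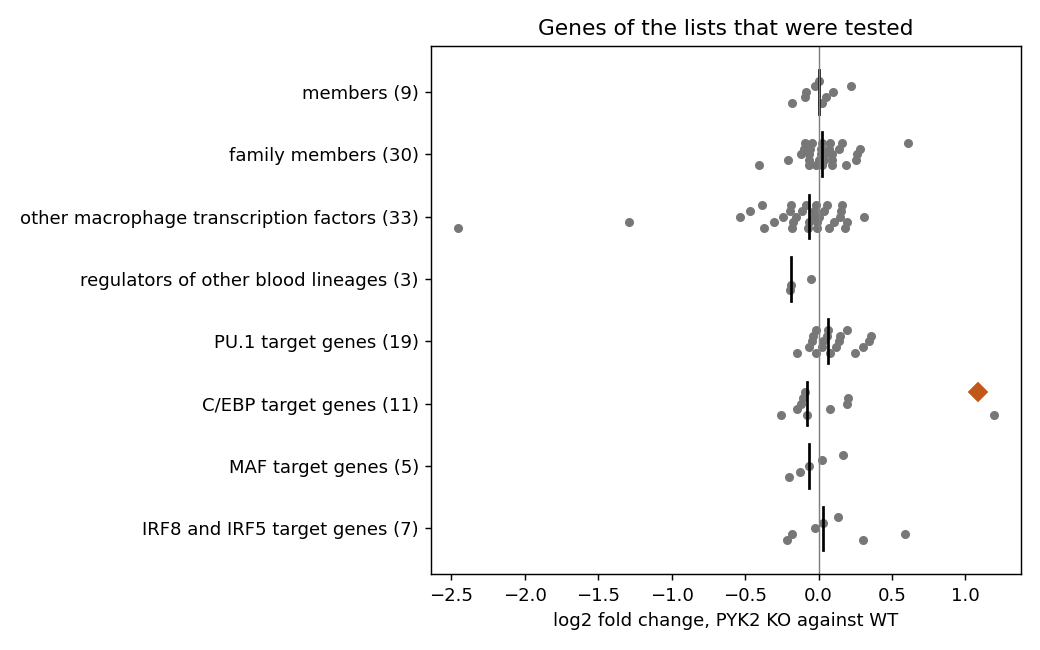
Log2 fold change in PYK2 KO against WT (x axis) of every tested gene in each list (rows, with the number tested; 3 mice each); black bars are list medians and the orange diamond is Saa3, the 1 gene past the threshold. The medians of the lists lie between -0.19 and 0.067, and that of the 9 factors is 0.0049.

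Markers of macrophages were detected in every library. All 10 macrophage markers were tested and 0 passed, and their summed level was 29333 to 30047 CPM in WT and 30510 to 31506 CPM in PYK2 KO. Most of this sum is Lyz2, with a mean of 24068 CPM in WT against 25389 CPM in PYK2 KO, and of the 10 markers 6 were higher and 4 lower in PYK2 KO. Of 6 monocyte markers 4 were tested and F13a1 passed, with 107 ± 2.17 CPM in WT against 167 ± 5.84 CPM in PYK2 KO (SD, n = 3 mice each; log2 fold change 0.64, adjusted p = 0.000647, edgeR). The summed level of the monocyte markers was 135 to 141 CPM in WT and 194 to 216 CPM in PYK2 KO, most of it F13a1. The 10 neutrophil markers summed to 238 to 334 CPM and 280 to 481 CPM, with 6 tested and 0 passing. Of these 6, 5 were higher and 1 lower in PYK2 KO and 3 (S100a9, Mmp8 and Mpo) had an unadjusted p under 0.05, and of the 4 tested monocyte markers 4 were higher and 2 (F13a1 and Ly6c2) had one, against 6.03% of all genes in either direction. The monocyte markers too low to be tested were Ccr2, with 2.14 CPM in WT against 1.11 CPM in PYK2 KO, and Plac8, with 0.0851 against 0.313 CPM. S100a9 of the neutrophil list was past the threshold with no filter, with the residual component as a covariate and without WT library 1, and Mmp8 with no filter. The part of the monocyte and neutrophil markers in the values of Spi1, Cebpa, Irf8 and the target genes was not tested. Cd79a, Ms4a1 and Pax5 of B cells, Cd3e, Cd3d, Cd8a and Ncr1 of T and NK cells, Flt3, Zbtb46, Dpp4, Xcr1, Clec9a and Siglech of dendritic cells, Cpa3, Fcer1a and Ms4a2 of mast cells, Hbb-bs, Hba-a1 and Gata1 of erythroid cells, Col3a1, Pdgfra, Dcn and Lum of stromal cells and Calcr and Ocstamp of osteoclasts had 0 counts. Other genes of these lists were detected in both genotypes. Ighm, an immunoglobulin heavy chain, had 362 ± 17.5 CPM in WT against 336 ± 27.0 CPM in PYK2 KO, and Cd79b of B cells had 20.1 ± 0.761 against 17.2 ± 5.22 CPM (SD, n = 3 mice each). Pf4, a platelet chemokine, had 725 ± 118 CPM in WT against 659 ± 8.17 CPM in PYK2 KO. Cd4 had 6.15 against 5.14 CPM. The osteoclast genes Nfatc1, Ctsk and Acp5 had 39.3 against 42.5, 28.5 against 21.7 and 8.41 against 8.39 CPM. Of these, only Ctsk did not overlap between genotypes, as in 10.2% of all genes. None of these passed the threshold, and their part in the levels of the 9 factors was not tested.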

How the data were processed

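BMDM RNA of 6 mice, 3 of each genotype, was sequenced by bulk MARS-seq. Raw counts per gene and library, made by the authors with the UTAP pipeline, were deposited without normalization; the submitters' processing notes name cutadapt, STAR and mm10. Collapse of molecular identifiers and use of strand are not given in the sources used here, so counting errors cover counting only. No pair of libraries of the same genotype agreed within sampling noise.

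Genotypes were compared by the quasi-likelihood test of edgeR 4.0.16 in R 4.3.3, after filterByExpr and TMM scaling, at a Benjamini-Hochberg adjusted p under 0.05. The F statistic gave the standard errors, and the t quantile the intervals. The fit was checked on simulated data. Alternatives were DESeq2 1.42.0, limma 3.58.1 (voom), other scalings and filters, a covariate and each library left out. Positions came from GENCODE M21.

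The genes and lists were chosen with earlier results of these data known. Named genes were the 9 factors, Ptk2b and, per list, those past the threshold, the 3 of highest CPM and the smallest p; per marker list, those at 0 and the 2 of highest CPM; and, per factor, the most correlated gene. The Spi1 to Cebpa ratio and its leave-one-out values were chosen after seeing the data. A few genes that this rule names are not reported here.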

Additional observations from a re-analysis of the deposited data

How the results depend on the processing

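No paired analysis was possible because the 2 genotypes share no replicate number. In every alternative 0 of the 9 factors were past the threshold. With the test, scaling, filter or covariate changed, 62 of the factors' 63 log2 fold changes kept their direction, and Irf8 turned to -0.0022 with no filter, as did Klf13 to -0.00041. With 1 library left out, 46 of 54 kept it, and the ranges that crossed 0 were -0.22 to 0.035 for Cebpb, -0.23 to 0.026 for Maf, -0.038 to 0.053 for Irf8, -0.065 to 0.0041 for Irf5 and -0.0071 to 0.0497 for Runx1. Those of Klf4, 0.0081 to 0.18, and Zeb2, 0.0029 to 0.10, did not cross 0. Among the other named genes such ranges were -0.058 to 0.12 for Klf13, -0.024 to 0.17 for Klf6, -0.085 to 0.0304 for Atf3, -0.13 to 0.12 for Tcf4, -0.069 to 0.033 for Cd68, -0.061 to 0.049 for Fcer1g, -0.19 to 0.0058 for Cd14, -0.059 to 0.13 for Cst3, -0.062 to 0.36 for Chil3, -0.22 to 0.26 for Itgax, -0.43 to 0.073 for Cd4 and -0.21 to 0.0037 for Pf4. The difference in the log2 ratio of Cebpa to Spi1 was 0.31 to 0.54 with 1 library left out.

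Of all genes tested, 25 were called, against 159 with no filter, 62 with the residual component as a covariate, which is taken from the data and understates the error, and 14 (without PYK2 KO library 4) to 34 (without WT library 1) with 1 library left out. It was 15 without WT library 5 or PYK2 KO library 2. In the marker lists, F13a1 was called in the main fit and in every alternative. In the lists of factors and targets, 1 gene was called. The number was 5 with no filter (Saa3, Egr1, Fos, Acod1 and Ncf4) and 4 with the covariate (Saa3, Egr1, Acod1 and Ncf4). It was 2 with DESeq2 (Saa3 and Ncf4) and 1 to 2 with 1 library left out. The cause was not tested.

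With 3 mice a genotype, these data do not separate changes smaller than the intervals given. Klf4 is limited by its counts.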

Other observations

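The immediate early genes Egr1 and Fos, transcription factors that are induced within minutes of a stimulus, stood high in 1 WT library. Egr1 was at 10.5, 9.24 and 80.3 CPM in WT libraries 1, 5 and 6 and at 4.17, 12.5 and 1.19 CPM in PYK2 KO libraries 2, 3 and 4. Fos was at 21.5, 26.6 and 103 CPM in WT and at 13.5, 32.9 and 13.7 CPM in PYK2 KO. The genotypes overlapped for both genes. The log2 fold change of Egr1 was -2.45 (adjusted p = 0.537 from edgeR), and -0.78 without WT library 6. That of Fos was -1.29 (adjusted p = 0.661 from edgeR), and -0.28 without WT library 6. In the same WT library Cebpb was at its highest and Maf, Cebpa, Irf5 and Runx1 at their lowest level of the 6 libraries. A link to Egr1 and Fos was not tested.

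In the neutrophil marker list, S100a9 and Mmp8 had log2 fold changes of 0.85 and 0.44, and in the monocyte list Ly6c2 had 0.64, none of them past the threshold. S100a9 passed it with no filter (adjusted p = 1.45e-10 from edgeR), with the residual component as a covariate (0.00294) and without WT library 1 (log2 fold change 1.37, adjusted p = 0.0173 from edgeR), and over the alternatives its adjusted p was otherwise above the threshold. Mmp8 passed it with no filter (adjusted p = 0.000428 from edgeR), and its log2 fold change was 0.22 without PYK2 KO library 4. Mpo and Ly6c2, named after their values were seen, passed under none of the alternatives run. Ctsk, the osteoclast protease cathepsin K, had a log2 fold change of -0.39 (unadjusted p = 0.0194 and adjusted p = 0.674 from edgeR). All its PYK2 KO values lay below those of WT, a separation seen in 10.2% of all genes.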
